A study of Mus musculus with 14 samples.

Results

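Fatty acid oxidation and the targets of the nuclear receptor PPARA were followed in mouse liver through 34 genes, taken as a list of symbols with no threshold on a measured value, although earlier results of these data were known when the list was made. Each of the 34 symbols had 1 of the 22850 rows of the deposited expression table. By textbook location, 18 of the genes encode mitochondrial proteins, 9 encode peroxisomal proteins, and 7 act elsewhere or in more than 1 place. All 34 passed the filter on low values, a value above the table's floor of 1 in at least 4 of the 14 libraries.

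The livers were those of C57BL/6N mice kept on 3 regimens, and their RNA was sequenced. In the HFWD+sugar group (5 libraries) the mice ate a Western diet with 40% of its energy from fat and their drinking water held 42 g/L of sugar, of which 55% was fructose and 45% sucrose. In the HFWD group (5 libraries) they ate that diet without the sugar, and in the chow group (4 libraries) a standard chow with about 12% of energy from fat. Every diet began at 7 weeks of age, and the fats named for the diets are lard, butterfat and Crisco. Sex and time on diet are not given in the labels used here. The titles of the chow libraries name the diet differently from their treatment label, which was followed here. The labels do not say that each library came from a separate animal, so p-values measure the spread between libraries, which may be technical.

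Mitochondrial beta-oxidation shortens fatty acids step by step after they have been bound to coenzyme A and carried across the inner membrane as carnitine esters. Peroxisomes hold a parallel set of enzymes that begins with very long and branched chains. PPARA, a receptor that binds fatty acids, drives many genes of both routes in liver and is known for its role in the response to fasting.

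Values are normalized units on a linear scale. The commonest value above the floor was 2.47 to 6.85 units by library and was taken as the worth of 1 read. Only 54.2% to 64.8% of low values were whole multiples of it, so read equivalents are approximate. Totals divided by this value gave 3.77 M read equivalents in chow 4, 5.84 M in HFWD 1 and 7.19 M to 9.34 M in the other libraries. All 10 hepatocyte markers were above the floor in some library, as were all 9 macrophage, 7 stellate and 6 endothelial markers with a row. Of other cell types, 4 of 5 bile duct markers (not Krt19), 4 of 5 fat markers (not Retn), 1 of 4 muscle markers (not Acta1, Myh4 or Myh6) and 2 of 5 pancreas markers (not Prss1, Amy2a5 or Pnlip) were above it. The summed hepatocyte markers ranged from 356300 to 437300 units in HFWD+sugar, 382500 to 649500 in HFWD and 499900 to 934000 in chow, so that the HFWD+sugar and chow ranges did not overlap. The summed fat markers ranged from 761.4 to 889.3 units in HFWD+sugar, 816.9 to 1066 in HFWD and 461.5 to 826 in chow. The part of these shifts in the differences below was not tested, and in bulk liver fewer cells of a type and less RNA per cell cannot be told apart. Whether values were divided by gene length is not given in the sources used here, so levels are compared between livers, and where rows of different genes are set side by side their values carry no correction for length.

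Of the 34 genes, 10 rose and 0 fell in HFWD+sugar against chow. Across all 14770 rows tested, 5.67% rose and 3.38% fell in that comparison. The 10 were Acsl1, Cpt1a, Slc25a20, Acadm, Decr1 and Bdh1, then Acaa1b, Hsd17b4 and Decr2 of the peroxisome, and Vnn1. By place these are 5 of 18 mitochondrial, 3 of 9 peroxisomal and 2 of 7 other genes. The median log2 difference was 0.66 over the 34 genes, 0.62 over the mitochondrial and 0.83 over the peroxisomal ones, against 0.12 over all rows tested. In 10 of the 34, the called genes without Slc25a20 and with Hadh, every HFWD+sugar liver was above every chow liver, as in 5.96% of all rows. A rise here means a Benjamini-Hochberg adjusted p under 0.05 by limma, fitted on log2(value + 1) over all rows, and every adjusted p below comes from that fit.

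In HFWD against chow 1 of the 34 genes rose, Vnn1, and 0 fell, where 2.44% of all rows rose and 0.934% fell. In no member were all HFWD livers above all chow livers, against 3.84% of all rows. Before adjustment 7 of the 34 had a p under 0.05, as had 2397 of the 14770 rows. The median log2 difference was 0.19, against 0.04 over all rows. Both comparisons use the same 4 chow livers, so their values are given side by side and not as independent results.

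The sugar itself was tested by HFWD+sugar against HFWD. Of the 34 genes 0 were called there, as were 0 of all 14770 rows (0%), and 9 of the 34 had an unadjusted p under 0.05, as had 1273 of all rows. The median log2 difference was 0.35, against 0.05 over all rows. Acaa1b had the smallest p of the 34, with a log2 difference of 0.71 (SE 0.17, adjusted p = 0.46). Its lowest value in HFWD+sugar, 598 units, lay above its highest in HFWD, 529.5. No other member separated these 2 groups, and 0.941% of all rows did so in the same direction.

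**Figure D1:**
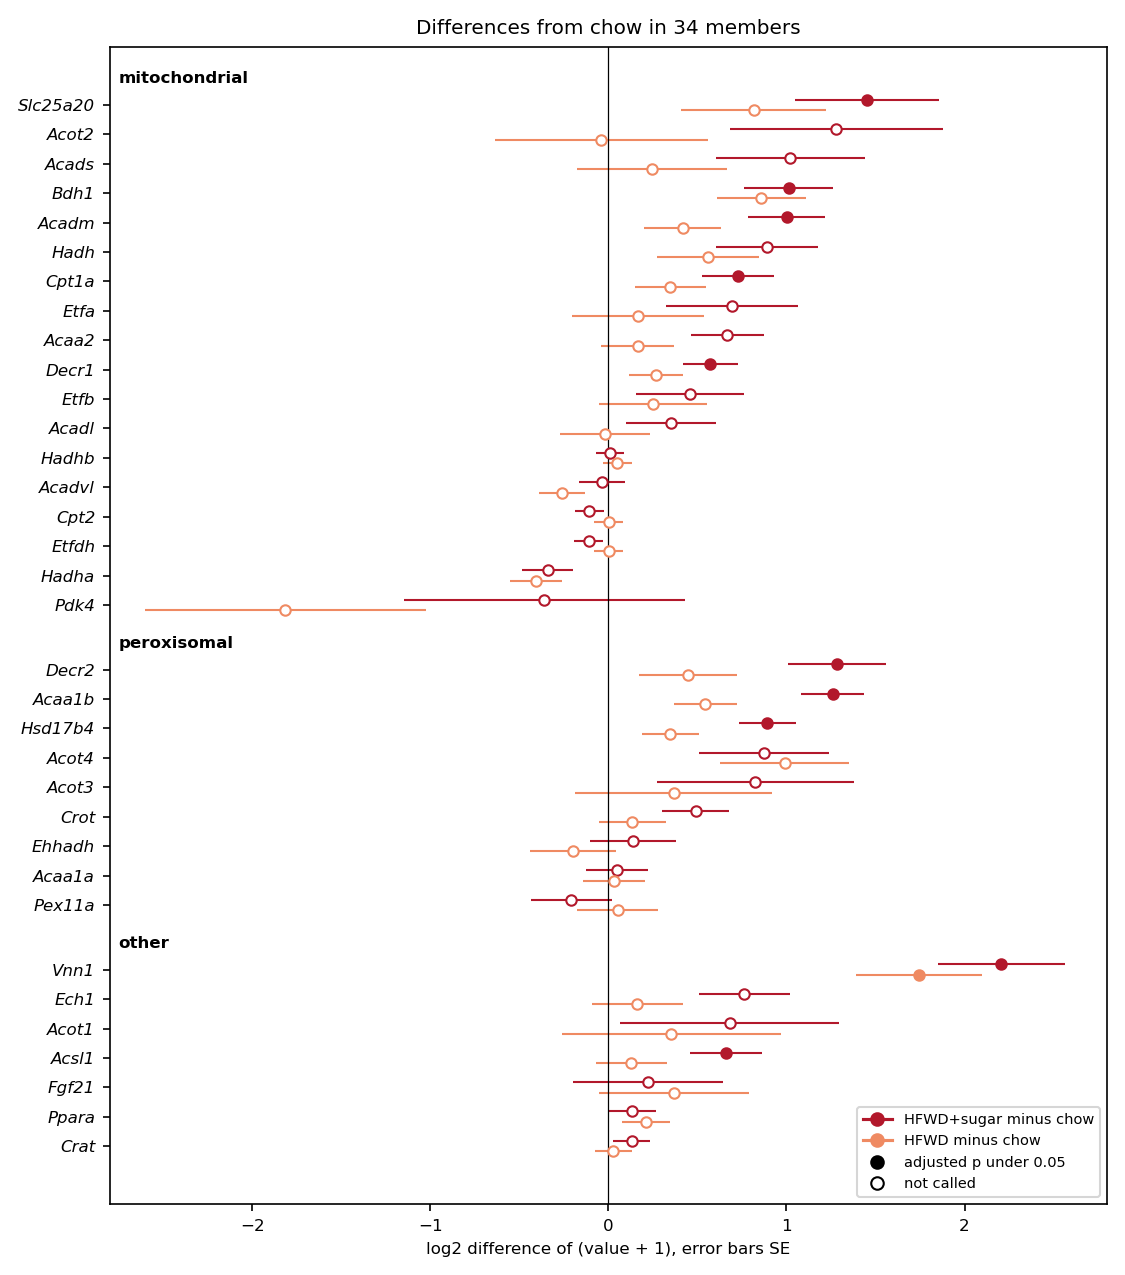
Log2 difference of (value + 1) from chow for each of the 34 genes, grouped by place, with SE bars. Red marks HFWD+sugar minus chow and orange HFWD minus chow. Filled points had an adjusted p under 0.05, which holds for 10 red points and 1 orange point, that of Vnn1.

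How many genes passed against chow rested on single livers. Without HFWD+sugar 4 the count of 10 became 5, and without HFWD+sugar 5 or without chow 3 it became 6. The share of all rows that rose moved with it, to 2.96%, 3.74% and 3.23%. Acaa1b, Acadm, Decr2, Hsd17b4 and Vnn1 stayed called in each of 24 alternative analyses. With library medians set equal, HFWD+sugar against chow gave 420 higher and 1151 lower rows, and of the 34 genes 7 were called higher and 1, Hadha, lower. In HFWD the count of 1 became 3 without HFWD 5, when Acaa1b and Bdh1 were called higher too, and 3 without chow 4, when Bdh1 was called higher and Hadha lower. Of all rows in that comparison, 2.34% rose and 0.959% fell without HFWD 5. Without chow 4 these shares were 4.81% and 2.32%, against 2.44% and 0.934% with all livers.

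Ppara itself encodes the receptor. Its row held 509, 558, 404, 589 and 597 units in the HFWD+sugar livers, 646, 519.9, 554, 562 and 508 in the HFWD livers, and 412, 604, 479.6 and 445 in the chow livers. The 3 groups overlapped throughout. The log2 differences from chow were 0.13 in HFWD+sugar (SE 0.13, 95% interval from -0.15 to 0.42) and 0.21 in HFWD (SE 0.13, 95% interval from -0.07 to 0.50), and neither was called.

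PPARA binds DNA with RXR at a pair of AGGTCA-like half-sites set 1 base apart, called a direct repeat. Promoter sequence from RefSeq (GRCm38.p6), 250 bases before to 50 after the start, was matched for 29 of the 34 genes, all but Vnn1, Hsd17b4, Decr1, Crat and Acaa2. A single half-site AGGTCA, on either strand, lay in 5 of the 29 windows (Acadm, Acadvl, Acot3, Acot4 and Cpt1a) and in 18.1% of the windows of all 27025 symbols. The repeat AGGNCANAGGNCA, on either strand, which may but need not contain AGGTCA, lay in 0 of the 29 windows and in 0.451% of all. Within 2500 bases on either side of the table's gene start (NCBIM37, which is mm9), it lay in 4 of the 29 genes and in 7.64% of all 22850 rows. Vnn1, Hsd17b4 and Decr1, which were called in a comparison, and Crat and Acaa2 were not searched in these wider windows. The 4 sites found are printed because they are the only matches among the 29 genes. The repeat is in capitals, with 8 bases on each side.
Acaa1b, chr9:119067154-119067166, plus strand, 955 bases before the gene start: caagtgggAGGCCAGAGGTCAgatcccca
Acads, chr5:115569120-115569132, plus strand, 223 bases after the gene start: accaaactAGGACAAAGGCCAcgcgcagc
Cpt2, chr4:107597839-107597851, minus strand, 1636 bases before the gene start: gtgtgtggAGGTCAGAGGACAtccttcac
Etfdh, chr3:79432303-79432315, minus strand, 470 bases after the gene start: gctaaactAGGGCAAAGGTCAatgctgtc
Of these 4 genes only Acaa1b was called in a comparison. The matches describe the letters in these windows and show no binding.

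Fatty acids enter oxidation through activation and the carnitine shuttle. Of the 5 genes of this step, the rows of 3 rose in HFWD+sugar, where 5.67% of all rows rose. Each of these 3 rows lay below a neighbour row on the opposite strand, as given further on. None of these 3 calls held in every alternative. Acsl1, a long-chain acyl-CoA synthetase (chr8:47556395-47621405, mm9, plus strand), read 1586, 1255, 1189, 1874 and 1172 units in HFWD+sugar, 1148, 1057, 826, 1231 and 667 in HFWD, and 1097, 1065, 842 and 608 in chow. All 5 HFWD+sugar livers were above all 4 chow livers, and the HFWD livers overlapped the chow livers. The rise was 1.58-fold (log2 0.66, SE 0.20, adjusted p = 0.0483). This call was the least stable of the 10: it ended in 15 of 24 alternatives. Among them were the fits without HFWD+sugar 1, 2, 4 or 5 (adjusted p = 0.101, 0.067, 0.13 and 0.0544), without chow 3 or 4 (adjusted p = 0.112 and 0.118), and without HFWD 1, 2 or 3 (adjusted p = 0.0544, 0.059 and 0.054).

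Cpt1a encodes the carnitine palmitoyltransferase of the outer membrane, the rate-limiting entry of long chains (chr19:3323301-3385732, mm9, plus strand). It stood at 557, 385, 307, 604 and 498 units in HFWD+sugar, at 377, 315, 331, 518 and 259 in HFWD, and at 269, 297, 286 and 251 in chow. The chow livers lay within a narrow range, below every HFWD+sugar liver, and HFWD 5 fell inside that range. The log2 difference was 0.73 in HFWD+sugar (SE 0.20, 1.66-fold, adjusted p = 0.0323) and 0.35 in HFWD (SE 0.20, adjusted p = 0.422). The call in HFWD+sugar ended without HFWD+sugar 1, 4 or 5 (adjusted p = 0.0744, 0.09 and 0.0677) and without chow 1, 3 or 4 (adjusted p = 0.068, 0.0661 and 0.054). Cpt1a is a gene whose promoter holds the single half-site, so the RefSeq window is shown (chr19:3323051-3323350, GRCm38.p6, plus strand, AGGTCA on the opposite strand in capitals as TGACCT).
Cpt1a: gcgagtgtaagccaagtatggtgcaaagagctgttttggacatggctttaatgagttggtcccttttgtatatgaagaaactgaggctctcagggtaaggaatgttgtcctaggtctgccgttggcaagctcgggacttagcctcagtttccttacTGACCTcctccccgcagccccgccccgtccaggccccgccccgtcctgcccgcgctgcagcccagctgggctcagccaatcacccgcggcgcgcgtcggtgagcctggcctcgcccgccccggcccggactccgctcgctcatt

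Slc25a20, the translocase that exchanges acylcarnitine for carnitine across the inner membrane (chr9:108564429-108586972, mm9, plus strand), had 193, 165, 102, 259.6 and 141 units in HFWD+sugar, 186, 90.6, 72.7, 126 and 83.2 in HFWD, and 89.6, 112, 59.1 and 20.6 in chow. HFWD+sugar 3 lay below chow 2, and the lowest chow value came from chow 4, the shallowest library, in which 1 read was taken as worth 6.85 units. The difference was 2.74-fold (log2 1.45, SE 0.41, adjusted p = 0.0352). Without chow 4 the log2 difference was 0.96 and the call ended (adjusted p = 0.067). It also ended without chow 3 (adjusted p = 0.0771) and without HFWD+sugar 1, 2, 4 or 5 (adjusted p = 0.0709, 0.0632, 0.0952 and 0.0532).

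The other 2 genes of the shuttle were not called. Cpt2, the inner-membrane transferase that frees the acyl group for oxidation, averaged 2262 ± 188 units in HFWD+sugar, 2433 ± 78.8 in HFWD and 2437 ± 208 in chow (SD, n = 5, 5 and 4, as for all group means below). Crat, the carnitine acetyltransferase of mitochondria and peroxisomes, averaged 3809 ± 292 units in HFWD+sugar, 3546 ± 198 in HFWD and 3511 ± 602 in chow. The 95% intervals of the log2 difference between HFWD+sugar and chow ran from -0.28 to 0.06 for Cpt2 and from -0.09 to 0.34 for Crat.

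The first step of each mitochondrial round is taken by acyl-CoA dehydrogenases of different chain length, of which the medium-chain enzyme Acadm rose (chr3:153585321-153607596, mm9, minus strand). Acadm had 302, 307, 271, 471 and 314 units in HFWD+sugar, 267, 279, 156, 283 and 148 in HFWD, and 182, 184, 154 and 137 in chow. Every HFWD+sugar liver exceeded every chow liver, and the HFWD livers fell into 3 above the chow range and 2 within it. The difference was 2.00-fold (log2 1.0, SE 0.22, adjusted p = 0.0094) in HFWD+sugar and log2 0.42 (SE 0.22, adjusted p = 0.362) in HFWD. The Acadm promoter also holds the single half-site and is shown from RefSeq (chr3:153944594-153944893, GRCm38.p6, minus strand, the site in capitals as TGACCT).
Acadm: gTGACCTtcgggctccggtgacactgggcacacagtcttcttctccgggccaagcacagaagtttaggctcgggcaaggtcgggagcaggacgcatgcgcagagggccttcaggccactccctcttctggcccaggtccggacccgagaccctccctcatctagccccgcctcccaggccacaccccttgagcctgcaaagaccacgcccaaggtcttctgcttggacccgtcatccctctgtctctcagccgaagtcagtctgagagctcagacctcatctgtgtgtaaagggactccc

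The long-chain enzyme Acadl read 96.2, 98.4, 55.7, 98.7 and 70.9 units in HFWD+sugar, 94.5, 57.1, 63.5, 64.2 and 46.1 in HFWD, and 79.4, 74.8, 51.9 and 54.8 in chow. Its groups overlapped, with 3 HFWD+sugar livers above every chow liver, and it was not called in HFWD+sugar (log2 0.35, SE 0.25, adjusted p = 0.422). Acads, for short chains, averaged 61.9 ± 23.8 units in HFWD+sugar, 37.2 ± 17.5 in HFWD and 31.3 ± 15.3 in chow (log2 1.02 in HFWD+sugar, SE 0.42, adjusted p = 0.139). Acadvl, for very long chains, averaged 526 ± 25.4 units in HFWD+sugar, 453 ± 67.1 in HFWD and 545 ± 99.2 in chow, with a log2 difference of -0.03 in HFWD+sugar and -0.26 in HFWD. Neither of these 2 rows was called.

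Hadha and Hadhb encode the subunits of the trifunctional protein, which carries long chains through the later steps. Hadha held 3540.5, 2828, 3243, 2796 and 2532 units in HFWD+sugar, 3030.3, 3166, 2657, 2751 and 2604 in HFWD, and 3862, 4928, 4022 and 2599.6 in chow. In the chow group 3 livers were above all 10 livers on the Western diets, and chow 4 was below all but 1 of them. Hadha had log2 differences of -0.34 in HFWD+sugar (SE 0.14, adjusted p = 0.151) and -0.41 in HFWD (SE 0.14, adjusted p = 0.146), and was not called. Without chow 4 it was called lower in both, with log2 differences of -0.52 (adjusted p = 0.00782) and -0.58 (adjusted p = 0.00461). It was also called lower in HFWD+sugar after median centring of the libraries (log2 -0.55, adjusted p = 0.0301). Hadhb, which starts 0.086 kb from Hadha on the other strand, averaged 30708 ± 1997 units in HFWD+sugar, 31555 ± 1858 in HFWD and 30493 ± 1795 in chow, with log2 differences of 0.01 and 0.05.

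Decr1, a mitochondrial dienoyl-CoA reductase needed for unsaturated chains (chr4:15844387-15872654, mm9, minus strand), rose in HFWD+sugar. It had 441, 549, 410.1, 649 and 430.0 units in HFWD+sugar, 428, 400.0, 363, 503 and 308 in HFWD, and 324, 352, 303 and 334 in chow. The HFWD+sugar and chow livers did not overlap, while HFWD 5 lay at the low end of the chow values. The difference was 1.49-fold in HFWD+sugar (log2 0.57, SE 0.15, adjusted p = 0.0279). It was no longer called without HFWD+sugar 2 or 4 (adjusted p = 0.0653 and 0.0802), without chow 1 or 3 (adjusted p = 0.0609 and 0.0796), or after median centring (log2 0.36, adjusted p = 0.089).

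A pair of enzymes that end each mitochondrial round came close to the threshold. Acaa2, the mitochondrial thiolase, averaged 382 ± 97.2 units in HFWD+sugar, 269.6 ± 69.7 in HFWD and 235 ± 27.1 in chow (log2 0.67 in HFWD+sugar, SE 0.20, adjusted p = 0.0509). Hadh, the hydroxyacyl-CoA dehydrogenase for shorter chains, averaged 182 ± 54.6 units in HFWD+sugar, 151 ± 68.9 in HFWD and 96.0 ± 18.6 in chow (log2 0.89 in HFWD+sugar, SE 0.29, adjusted p = 0.0589). All 5 HFWD+sugar livers exceeded all 4 chow livers for Hadh but not for Acaa2. Without HFWD+sugar 3, its low liver, both were called (adjusted p = 0.016 for Acaa2 and 0.043 for Hadh).

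Electrons from the dehydrogenases pass to the respiratory chain through the electron transfer flavoprotein, made of Etfa and Etfb, and its oxidoreductase Etfdh. None of the 3 was called in any comparison. Etfa averaged 41.3 ± 15.2 units in HFWD+sugar, 28.9 ± 12.4 in HFWD and 24.7 ± 8.25 in chow. Etfb averaged 92.0 ± 33.7 units in HFWD+sugar, 78.5 ± 21.9 in HFWD and 66.0 ± 21.5 in chow. Etfdh averaged 2029.5 ± 114 units in HFWD+sugar, 2196 ± 164 in HFWD and 2193 ± 168 in chow, with a 95% interval of the log2 difference between HFWD+sugar and chow from -0.28 to 0.06.

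**Figure D2:**
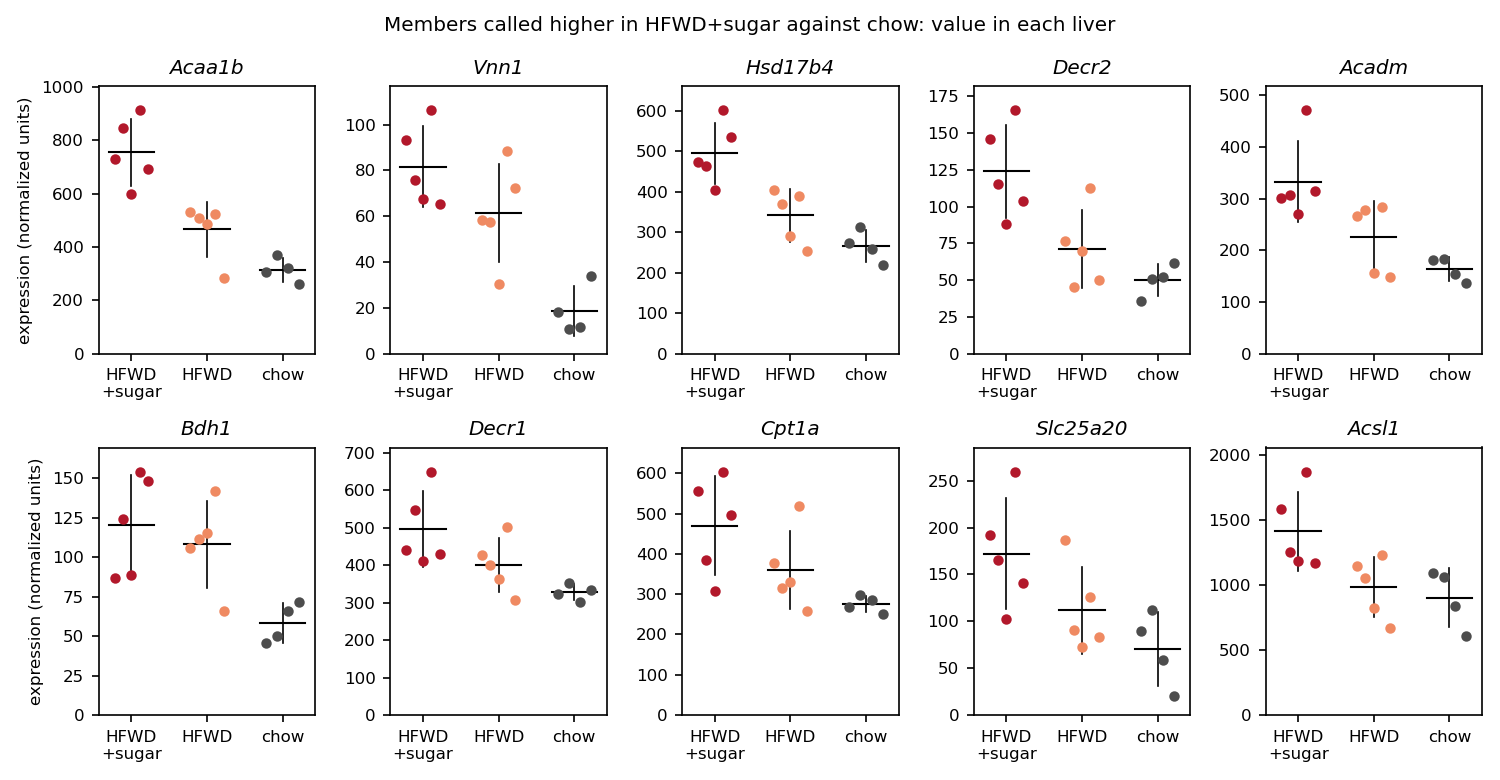
Value of each liver, in normalized units, for the 10 genes called higher in HFWD+sugar against chow, with the group mean as a line and SD as a bar. The HFWD+sugar and chow points do not overlap in any panel except that of Slc25a20.

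In the peroxisome the thiolase row Acaa1b, which encodes an enzyme of the last step of each round (chr9:119057141-119066211, mm9, minus strand), had the smallest adjusted p of the 34 genes. Acaa1b read 729, 846, 598, 913 and 691 units in HFWD+sugar, 529.5, 509, 487, 523 and 284 in HFWD, and 305, 368, 321 and 262 in chow. The HFWD livers lay between the other groups apart from HFWD 5, which fell inside the chow range. The difference was 2.39-fold in HFWD+sugar (log2 1.26, SE 0.18, adjusted p = 0.000323). In HFWD it was log2 0.54 (SE 0.18, adjusted p = 0.106), and without HFWD 5 it was log2 0.71 and called (adjusted p = 0.00857).

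Its paralog Acaa1a, the other peroxisomal thiolase row (chr9:119248794-119259417, mm9, plus strand), read 271, 339, 333, 391 and 286 units in HFWD+sugar, 362, 336, 251, 321 and 329 in HFWD, and 271, 471, 289 and 251 in chow. All 3 groups overlapped and chow 2 was the highest liver. The log2 difference was 0.05 in HFWD+sugar (95% interval from -0.32 to 0.42) and 0.03 in HFWD (95% interval from -0.33 to 0.40). The coding sequences of the pair are both 1275 bases long and 96.5% identical, with 44 differing positions and a longest identical run of 327 bases. Of the 100-base windows of the transcripts, 22.6% of those of Acaa1b also occur in Acaa1a. How reads that match both were counted is not given in the sources used here, so the split between these rows is uncertain. A stretch of 90 bases that tells them apart best is shown (coding positions 460 to 549), with the 13 differing positions in capitals.
Acaa1b: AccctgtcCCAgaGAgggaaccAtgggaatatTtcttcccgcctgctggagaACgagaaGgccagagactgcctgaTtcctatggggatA
Acaa1a: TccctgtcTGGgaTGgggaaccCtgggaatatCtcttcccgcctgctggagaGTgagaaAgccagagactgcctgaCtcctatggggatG

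Hsd17b4 encodes the D-bifunctional protein, which takes very long and branched chains through the middle steps. It stood at 472, 462, 403, 601 and 535 units in HFWD+sugar, at 405, 369, 291, 389 and 253 in HFWD, and at 274, 313, 258 and 219 in chow. Every HFWD+sugar liver was above every chow liver, and HFWD overlapped both. The rise was 1.86-fold (log2 0.89, SE 0.16, adjusted p = 0.00272) in HFWD+sugar, and the log2 difference in HFWD was 0.35 (SE 0.16, adjusted p = 0.287).

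Ehhadh, the L-bifunctional protein of the classical inducible peroxisomal route, read 1079, 1149, 1223, 1269 and 1011 units in HFWD+sugar, 955, 1099, 748, 943 and 807 in HFWD, and 918, 2152, 982 and 596 in chow. A single liver, chow 2, was far above all others, and the other 3 chow values lay below all 5 of HFWD+sugar. Ehhadh was not called (log2 0.14 in HFWD+sugar, SE 0.24, adjusted p = 0.767). Without chow 2 its log2 difference was 0.49 (adjusted p = 0.0521).

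Decr2, the peroxisomal dienoyl-CoA reductase (chr17:26218156-26227274, mm9, minus strand), had 146, 116, 88.4, 165 and 104 units in HFWD+sugar, 76.8, 45.2, 69.8, 112 and 50.1 in HFWD, and 35.9, 50.4, 51.9 and 61.7 in chow. No chow liver reached the lowest HFWD+sugar liver, and HFWD overlapped both groups. The rise was 2.43-fold (log2 1.28, SE 0.28, adjusted p = 0.00913) in HFWD+sugar, and the log2 difference in HFWD was 0.45 (SE 0.28, adjusted p = 0.461).

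The remaining 4 peroxisomal genes were not called. Crot, which makes carnitine esters of medium chains for export, averaged 764 ± 213 units in HFWD+sugar, 582 ± 67.0 in HFWD and 542 ± 159 in chow (log2 0.49 in HFWD+sugar, adjusted p = 0.114), and without chow 2 it was called (log2 0.68, adjusted p = 0.021). Pex11a, a protein of peroxisome division, averaged 100.1 ± 23.8 units in HFWD+sugar, 120.1 ± 29.0 in HFWD and 115 ± 21.1 in chow. Acot3 and Acot4 are peroxisomal acyl-CoA thioesterases, which release the free acid. Acot3 averaged 39.1 ± 26.7 units in HFWD+sugar, 27.1 ± 16.6 in HFWD and 18.7 ± 7.07 in chow. Acot4 averaged 90.2 ± 40.6 units in HFWD+sugar, 94.9 ± 41.7 in HFWD and 45.6 ± 13.3 in chow (log2 0.87 in HFWD+sugar, adjusted p = 0.143).

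**Figure D3:**
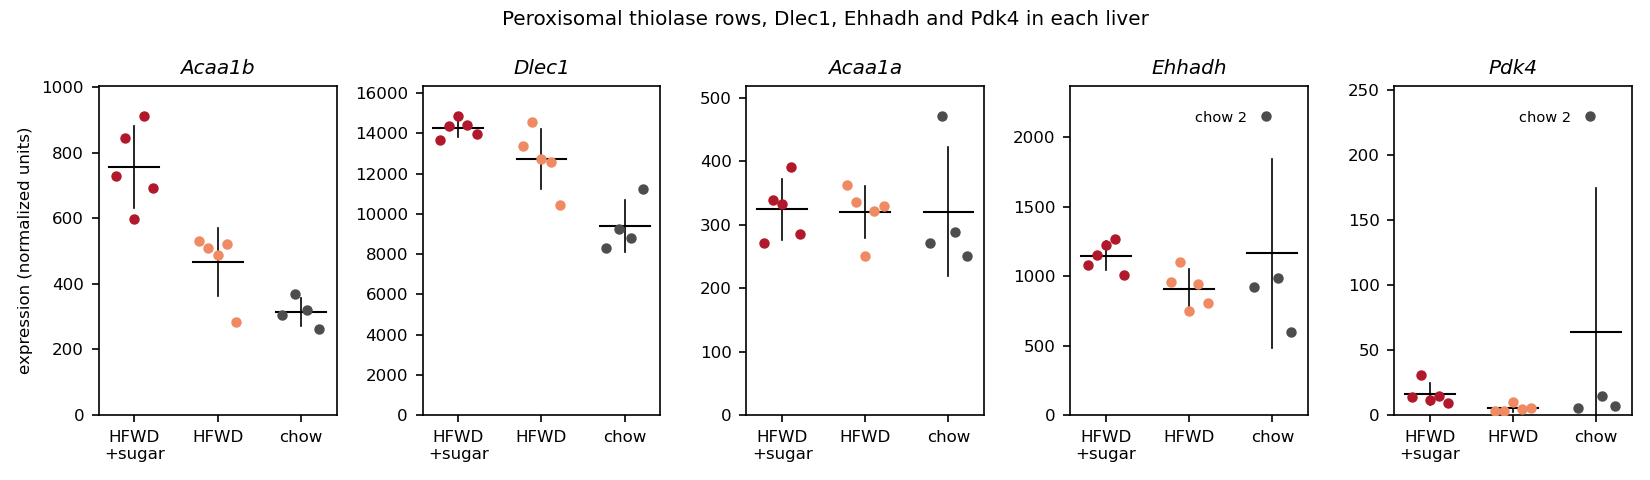
Value of each liver, in normalized units, for Acaa1b, its opposite-strand neighbour Dlec1, its paralog Acaa1a, Ehhadh and Pdk4, with the group mean as a line and SD as a bar, cut at 0. Acaa1b and Dlec1 separate HFWD+sugar from chow, Acaa1a does not, and chow 2 stands apart at 2152 units of Ehhadh and 230.3 units of Pdk4.

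Ech1, an isomerase of unsaturated chains found in both organelles, averaged 238 ± 65.4 units in HFWD+sugar, 158 ± 51.4 in HFWD and 140.3 ± 41.3 in chow (log2 0.76 in HFWD+sugar, SE 0.26, adjusted p = 0.0715). It was called without HFWD+sugar 3 (adjusted p = 0.0371). The cytosolic thioesterase Acot1 averaged 65.3 ± 31.6 units in HFWD+sugar, 49.1 ± 21.0 in HFWD and 49.5 ± 39.1 in chow. The mitochondrial Acot2 averaged 17.4 ± 6.74 units in HFWD+sugar, 7.15 ± 3.71 in HFWD and 9.02 ± 10.03 in chow. Neither was called, and Acot2 was called in HFWD+sugar without chow 2 (log2 1.87, adjusted p = 0.0418). Acot1, Acot2, Acot3 and Acot4 lie beside each other on chromosome 12, and 24.5% of the 100-base windows of the Acot1 transcript also occur in Acot2 and 7.1% in Acot3, so their values are uncertain too. At 2.47 to 6.85 units per read, Acot2 rests on few reads.

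Among the PPARA targets outside these routes, Vnn1, a pantetheinase that recycles the vitamin of coenzyme A (chr10:23614494-23625149, mm9, plus strand), rose on both Western diets. Vnn1 read 93.3, 75.9, 67.6, 106 and 65.1 units in HFWD+sugar, 58.1, 57.4, 30.4, 88.3 and 72.3 in HFWD, and 18.0, 10.6, 11.4 and 34.04 in chow. Only HFWD 3 fell below the highest chow liver, chow 4. The difference from chow was 4.62-fold in HFWD+sugar (log2 2.21, SE 0.35, adjusted p = 0.00119) and 3.35-fold in HFWD (log2 1.74, SE 0.35, adjusted p = 0.0102). Between HFWD+sugar and HFWD it was log2 0.46, with a 95% interval from -0.24 to 1.17.

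Bdh1, the mitochondrial dehydrogenase that forms the ketone body hydroxybutyrate (chr16:31422366-31458987, mm9, plus strand), had 87.0, 124, 88.7, 154 and 148 units in HFWD+sugar, 106, 112, 115, 142 and 65.9 in HFWD, and 45.8, 50.0, 66.0 and 71.9 in chow. The HFWD+sugar livers were all above chow, and in HFWD all but HFWD 5 were. The difference was 2.02-fold in HFWD+sugar (log2 1.01, SE 0.25, adjusted p = 0.0193) and log2 0.86 in HFWD (SE 0.25, adjusted p = 0.0713). The first ended without chow 1 or HFWD+sugar 4 or 5 (adjusted p = 0.0593, 0.0595 and 0.0504), and the second was called without HFWD 5 or chow 4 (adjusted p = 0.0285 and 0.0387).

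Pdk4, a kinase that shuts pyruvate out of the mitochondrial fuel supply in fasting, read 13.99, 31.0, 11.9, 14.8 and 9.27 units in HFWD+sugar, 2.87, 3.02, 10.3, 4.90 and 5.28 in HFWD, and 5.13, 230.3, 14.4 and 6.85 in chow. Apart from chow 2 no liver was above 31.0 units, and the groups overlapped. Pdk4 was not called, with log2 differences of -0.36 in HFWD+sugar (SE 0.79) and -1.81 in HFWD (SE 0.79, adjusted p = 0.258). Without chow 2 these were 0.81 in HFWD+sugar and -0.64 in HFWD, again without a call. Fgf21, a hormone that liver secretes, read 1, 1, 2.61, 3.27 and 1.38 units in HFWD+sugar, 1, 1, 6.20, 1.34 and 2.64 in HFWD, and 1, 2.65, 1 and 1 in chow. These are values at or near the floor, and a difference was not detectable at this depth.

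The livers of a group differed in the level of the whole set. Each gene was expressed relative to its chow mean on the log2 scale and the median was taken over the 34 genes. It was 0.58, 0.50, 0.29, 1.11 and 0.40 in the HFWD+sugar livers, 0.38, 0.21, -0.01, 0.52 and -0.04 in the HFWD livers, and -0.03, 0.24, -0.06 and -0.21 in the chow livers. HFWD+sugar 4 was the highest and all HFWD+sugar livers were above all chow livers, whereas HFWD 2, 3 and 5 lay within the chow range. HFWD+sugar 4 was the highest of its group in 22 of the 34 genes, HFWD 4 in 17 and chow 2 in 22, and the lowest were HFWD+sugar 3 in 15, HFWD 5 in 17 and chow 4 in 16. The median over all rows tested also stood highest in HFWD+sugar 4, at 0.19, and lowest in chow 4, at -0.08.

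**Figure D4:**
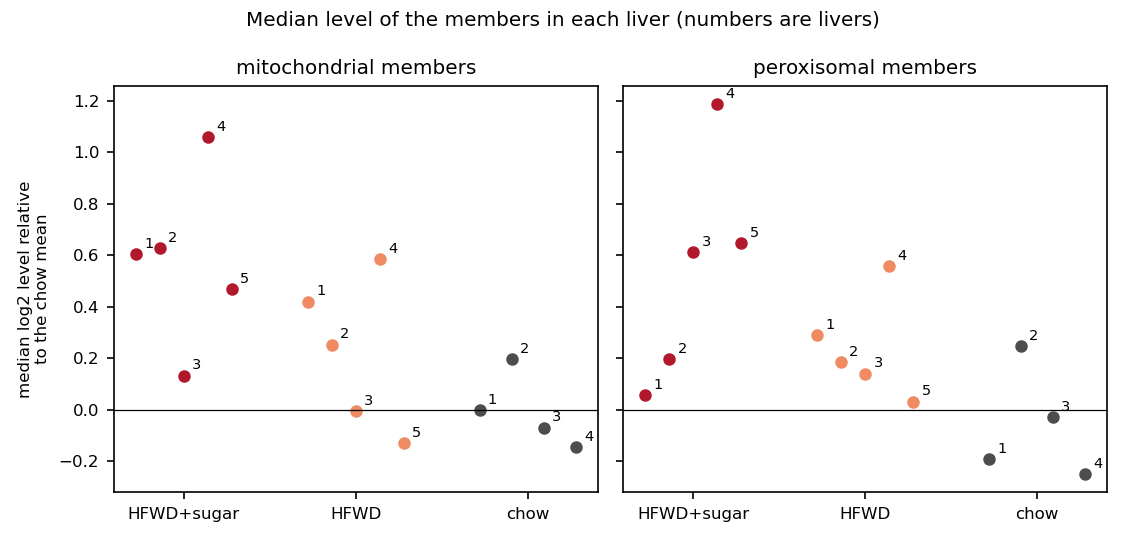
Median log2 level of the 18 mitochondrial genes (left) and the 9 peroxisomal genes (right) in each liver, relative to the chow mean of each gene, with livers numbered within groups. HFWD+sugar 4 is the highest liver in both panels, at 1.06 and 1.18. HFWD+sugar 1 and 2 are at 0.60 and 0.63 for mitochondrial and at 0.06 and 0.19 for peroxisomal genes.

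The medians of the mitochondrial and peroxisomal genes did not follow each other in every liver. HFWD+sugar 1 had medians of 0.60 over the mitochondrial and 0.06 over the peroxisomal genes, and HFWD+sugar 2 had 0.63 and 0.19. HFWD+sugar 3 was the other way round, at 0.13 and 0.61. With 9 peroxisomal genes, each such median is the value of a single gene. In HFWD+sugar 1 and 2, Acaa1b, Hsd17b4 and Decr2 were above every chow liver. Acaa1a, Ehhadh, Acot3 and Acot4 were within the chow range in both. Crot was above that range and Pex11a below it in HFWD+sugar 2, while both were within it in HFWD+sugar 1. Crot was also above it in HFWD+sugar 4, at 1070 units, and Pex11a below it in HFWD+sugar 5, at 83.3 units. Acot3 and Acot4 were above it in HFWD+sugar 3, at 68.2 and 126 units. In chow 2, 30 of the 34 genes were above the chow mean, against 23 to 29 in the HFWD+sugar livers, 15 to 27 in the HFWD livers and 8 to 15 in the other chow livers.

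Rows on the opposite strand bear on how these values are read. For 33 of the 34 genes, all but Hsd17b4, another row lay within 200 kb on the other strand, and the highest such row had a mean above the gene's own row in 26, by a median factor of 8.88 over the 33. These are ratios of row values and not of expression per length. Taking the highest row of each window favours a neighbour above the gene's own row. The same share over all rows was not computed, so whether 26 of 33 is unusual was not tested. Gaps ran from 0 kb (Acadvl and Acaa1b) to 183 kb (Acaa1a). The strand setting of the library and of the counting is not given in the sources used here. Acsl1, with a mean of 1116 units, lies 39.5 kb from Ccdc111, which averaged 152459 ± 27927 units in HFWD+sugar, 139104 ± 17023 in HFWD and 132511 ± 27580 in chow. Of the 9 called genes with such a neighbour, 1 had a neighbour that also rose (Dlec1), 1 had a neighbour that fell (Tmem8, beside Decr2), 6 had neighbours that were not called and 1 had a neighbour too low to test. The call of Tmem8 (adjusted p = 0.0394) ended in 12 of 24 alternatives, among them the fits without chow 2 or 4, HFWD 2, or HFWD+sugar 1, 2, 4 or 5 (adjusted p from 0.0507 to 0.0879), and without both chow 2 and 4 its log2 difference was -0.19.

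Dlec1 overlaps Acaa1b on the other strand and averaged 14263 ± 446 units in HFWD+sugar, 12737 ± 1492 in HFWD and 9382 ± 1283 in chow. It rose in HFWD+sugar (log2 0.61, SE 0.10, adjusted p = 0.0013) and in HFWD (log2 0.44, SE 0.10, adjusted p = 0.0195). Both calls ended after median centring (adjusted p = 0.0506 and 0.164). The call in HFWD also ended without chow 1, chow 3, HFWD 1 or HFWD 2 (adjusted p = 0.0749, 0.0672, 0.0518 and 0.0526). Acaa1b itself was 5.03% of the sum of both rows in HFWD+sugar, 3.50% in HFWD and 3.30% in chow. Reads of the 2 rows cannot be told apart without the strand setting, so the rise of Acaa1b is a rise of its row. Lef1, 9.06 kb from Hadh, rose as well, averaging 22273 ± 1064 units in HFWD+sugar, 22312 ± 1966 in HFWD and 15451 ± 4163 in chow. Its call in HFWD+sugar (log2 0.57, adjusted p = 0.0153) ended after median centring (log2 0.35, adjusted p = 0.183). Its call in HFWD (adjusted p = 0.0258) ended there too (adjusted p = 0.156), and without chow 1, 2 or 3 or HFWD 1, 2 or 4 (adjusted p from 0.051 to 0.0858).

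Own rows above every such neighbour were found for 8 genes: Acadm, Hadhb, Ehhadh, Acaa2, Hsd17b4, Crat, Bdh1 and Pdk4. Of these 8, 3 rose in HFWD+sugar against chow (Acadm, Hsd17b4 and Bdh1), as did 7 of the other 26, where 5.67% of all rows rose. The median log2 difference was 0.40 over the 8 and 0.67 over the 26, against 0.12 over all rows. Acadm lies 67.3 kb from its highest such neighbour, Asb17, which averaged 1.36 units in HFWD+sugar, 1.04 in HFWD and 1 in chow, the floor.

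**Figure D5:**
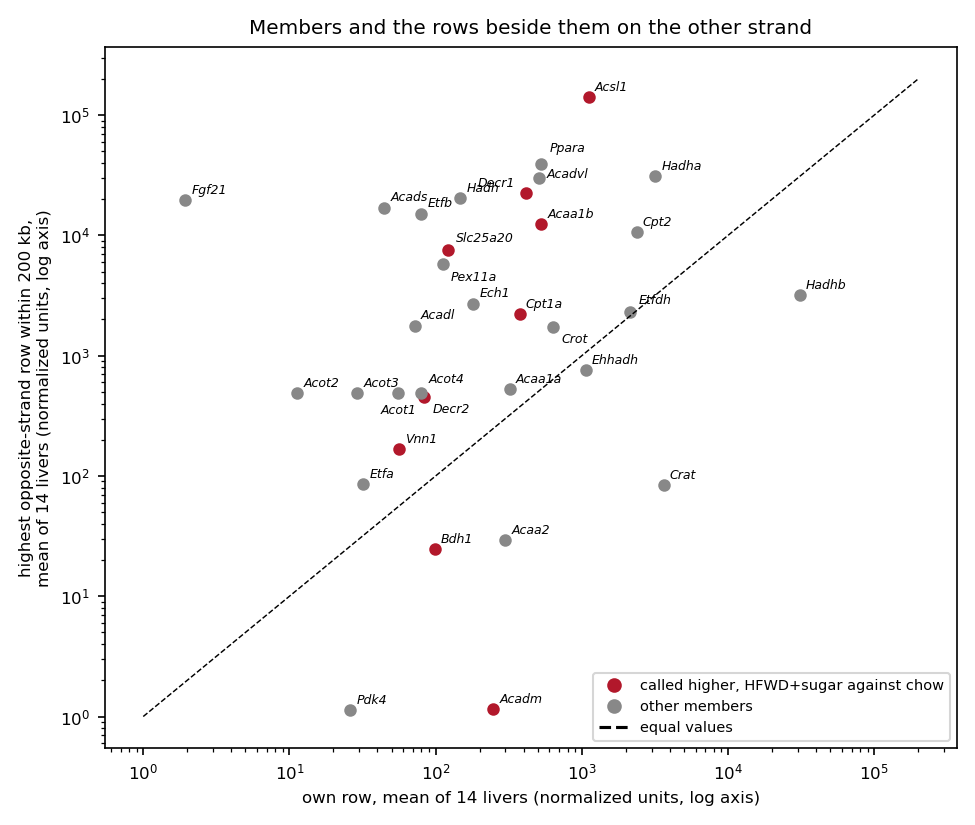
Mean over 14 livers of each gene's own row (horizontal) against the highest row on the opposite strand within 200 kb (vertical), both in normalized units with no correction for length, on log axes. Points above the dashed line of equal values, 26 of 33, have a higher neighbour, and red marks the 9 of these 33 genes whose own row rose in HFWD+sugar against chow.

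Other genes of the pathway were counted from a list of 65, of which 64 had a row and 61 were tested. In HFWD+sugar against chow 9 of 61 rose and 1 fell, where 5.67% of all rows rose and 3.38% fell, with a median log2 difference of 0.35 against 0.12 over all rows. In HFWD against chow 2 rose, Cidea and Aldh3a2, and 0 fell, where 2.44% of all rows rose and 0.934% fell. In HFWD+sugar against HFWD 0 of 61 were called, and 12 had an unadjusted p under 0.05, as had 1273 of the 14770 rows. Acat1, the thiolase that starts ketone synthesis, rose in HFWD+sugar and averaged 485 ± 145 units in HFWD+sugar and 238 ± 47.6 in chow (log2 1.0, SE 0.22, adjusted p = 0.0115).

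Aldh3a2, a fatty aldehyde dehydrogenase, averaged 635 ± 184 units in HFWD+sugar, 419.6 ± 123 in HFWD and 191 ± 72.6 in chow. It rose 3.37-fold in HFWD+sugar (adjusted p = 0.00101) and 2.22-fold in HFWD (adjusted p = 0.0272), and the second call ended without chow 2 or 3 (adjusted p = 0.0677 and 0.101) and without HFWD 1, 2, 3 or 4 (adjusted p = 0.0632, 0.0645, 0.0539 and 0.0827). Cidea, a lipid droplet protein, averaged 59.6 ± 19.6 units in HFWD+sugar, 27.1 ± 20.7 in HFWD and 1.41 ± 0.827 in chow, and Fitm1, another droplet protein, rose in HFWD+sugar as well (11.2 ± 6.09 against 2.47 ± 1.04 units, adjusted p = 0.0148). Pparg, Pex19 and Nr1d1 were also called higher in HFWD+sugar, with calls that ended in 8 of 23, 17 of 24 and 15 of 24 alternatives. That of Pparg ended without chow 1 or 2 or HFWD+sugar 1 or 4 (adjusted p from 0.058 to 0.0708). Pex19 lost its call without any 1 of the chow livers, HFWD 2 or 4, or HFWD+sugar 1, 2, 4 or 5 (adjusted p from 0.0504 to 0.105). Nr1d1 lost its call without chow 1 or 2, HFWD 1, 2 or 3, or HFWD+sugar 1, 2, 4 or 5 (adjusted p from 0.0542 to 0.106), and its log2 difference was 0.16 after median centring. Nudt7, a peroxisomal hydrolase of coenzyme A, was the one that fell, at 491 ± 203 units in HFWD+sugar and 1497 ± 545 in chow (log2 -1.63, SE 0.32, adjusted p = 0.00447), and its HFWD livers averaged 721 ± 282 units without a call.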

How the data were processed

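Expression was measured by RNA sequencing of total liver RNA in 14 libraries. Per the labels' protocols, ribosomal RNA was removed with a Ribo-Zero Gold kit and paired reads were sequenced. Per the submitters' processing notes, FastQC, TopHat2 2.0, SAMtools and the build mm9 were used. Not given in the sources used here are the read counter, the strand setting, the handling of multiply matched reads and the scaling. The authors deposited a signal for each gene, normalized expression on a linear scale, with a floor of exactly 1 that 36.7% to 47.1% of the rows of a library took.

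From these values, log2(value + 1) of the 14770 rows above the floor in at least 4 libraries was fitted with limma 3.58.1 in R 4.3.3, with 3 group means, all 14 libraries, a variance trend, two-sided tests and Benjamini-Hochberg adjustment across these rows in each comparison, at 0.05. Folds and log2 differences are on this scale and understate changes of low rows. Of the low values, 54.2% to 64.8% were whole multiples of 1 read within 0.02, so whole reads were not recovered and no test on counts was run. Within groups, a chi-square statistic over rows, in approximate read equivalents, was 6.65 or more per degree of freedom in each of 26 pairs. By this measure no library repeated another of its group. Pairs across groups were not examined, and the statistic does not tell whether libraries came from separate animals. Genes were placed at mm9 coordinates, which equalled those of GENCODE for 33 of the 34 genes. The fit was also run on simulated data with independent noise in each row and no differences in depth between libraries, unlike the real data. Promoters are RefSeq sequence; direct repeats were searched in NCBIM37.

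The 34 genes, the other pathway genes and the markers were chosen with earlier results of these data known. Full values are given for genes called in any comparison and for Ppara, Acadl, Hadha, Ehhadh, Acaa1a, Pdk4 and Fgf21; of the other pathway genes, values are given for at most 6 per comparison, by smallest p, and some are not reported here. Neighbour rows are the highest on the other strand within 200 kb. The alternatives were pseudocounts of 5 and 20, no filter, a mean of at least 20, median centring, quantile normalization, no trend, array weights, only the 2 groups compared, each library left out, and chow 2 and 4 left out together. Counting error and depth limit low rows: values near the floor rest on few reads.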

Additional observations from a re-analysis of the deposited data

Results flagged for a closer look

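In 7 of 102 gene and group pairs a single liver lay far from the other livers of its group, by Dixon's test at its 95% critical value. At that level chance flags about 1 in 20 independent groups of normally spread values. That share is no yardstick here, because the 102 pairs share the same livers and the values are linear with a floor. Where all other livers of a group were at the floor, as for Fgf21 in chow, any value above it is flagged. Whether 7 flagged pairs of 102 are more than chance gives was therefore not tested.

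Of these, 3 were chow 2: its Pdk4 was 230.3 units where the next chow liver had 14.4, its Crot was 779.5 units where the next had 485, and its Fgf21 was 2.65 units where the other 3 were at the floor of 1. In HFWD+sugar, liver 4 had 471 units of Acadm where the next had 314, and liver 2 had 31.0 units of Pdk4 where the next had 14.8. In HFWD, liver 5 had 284 units of Acaa1b where the nearest other had 487, and liver 4 had 570.0 units of Acadvl where the next had 449.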

How the results depend on the processing

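No single gene reversed its direction with a call under any alternative. Of 11 calls among the 34 genes, 6 were kept in every alternative: Vnn1 in both comparisons with chow, and Acaa1b, Acadm, Decr2 and Hsd17b4 in HFWD+sugar. The other 5 ended in 15 (Acsl1), 10 (Cpt1a and Slc25a20 each), 7 (Decr1) and 3 (Bdh1) of 24 alternatives.

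In HFWD+sugar against chow, 6 of the 34 genes were called with no filter and 6 with no variance trend, where the reported count was 10. With a mean of at least 20 the count was 12, and 9.07% of the 9509 rows then tested rose and 6.12% fell. With array weights it was 15, of which 14 were higher and 1, Hadha, lower. Without 1 library the count ran from 5 to 13. Of all rows, reported as 1336, 774 were called with no filter, 745 with no trend, 2174 with array weights and 768 with only the 2 groups, and 679 to 1768 without 1 library. Of other pathway genes, 10 in the report, 5 were called with no filter and 6 to 14 without 1 library. In HFWD against chow, where 1 was reported, 3 of the 34 were called with array weights and 2 without chow 2 and 4. Each of these counts includes Hadha, called lower. Without 1 library the count ran from 1 to 3. Of all rows, reported as 499, 309 were called with no filter, 275 after median centring, 246 with no trend, 1021 with array weights, 270 with only the 2 groups, 920 without chow 2 and 4, and 260 to 1050 without 1 library. Of other pathway genes, reported as 2, 1 was called with no filter, no trend or only the 2 groups, 4 with array weights, and 1 to 4 without 1 library. With no filter the adjustment ran over 22850 rows and the variance trend was fitted again with the added rows. The cause of the changed counts was not tested for any setting.

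In HFWD+sugar against HFWD, 0 of the 34 genes, 0 other pathway genes and 0 to 1 rows were called without 1 library. Median log2 differences of the 34 genes without 1 library ran from 0.53 to 0.76 (HFWD+sugar against chow), 0.08 to 0.32 (HFWD against chow) and 0.22 to 0.40 (HFWD+sugar against HFWD). No paired analysis was possible because the labels give no replicate numbers shared between groups. The sum of repeated rows was not run, since no symbol repeats. Chow 4, at 3.77 M read equivalents, limits low rows most.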
